A study of Caenorhabditis elegans with 7 samples.

Results

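The proteasome core and the ubiquitin system were examined in RNA of whole Caenorhabditis elegans, young adults of the wild-type strain N2. The genes were taken by symbol, as those whose probe sets name 1 gene that starts with pas-, pbs-, ubc-, uba-, uev-, ubq-, ubh- or usp-, and each gene was represented by its brightest probe set, by mean over the 7 arrays. This gave 33 of 17118 genes, 14 of the 20S core and 19 of ubiquitin and its enzymes. No probe set carried a ubc- symbol in the annotation used here, so the ubc- genes, which encode the E2 conjugating enzymes, were not analysed here. The 19 genes are therefore not mainly conjugation enzymes. They hold 2 ubiquitin genes, 2 genes of E1 activating enzymes, 3 uev- genes and 12 genes of deubiquitinases.

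The treated worms (13L) were grown from the egg for 3 days at 20°C on NGM plates with 1 µg/mL of the synthetic cocoa peptide 13L, and the control worms (NGM) on the same agar without the peptide. Both groups were age-synchronized. There were 3 arrays of 13L, named by their titles SL4, SL8 and SL12, and 4 arrays of NGM, SL1, SL5, SL9 and SL69. The study describes 4 biological replicates per condition, and the 7 arrays named here were analysed. Each value is a log2 signal per probe set on an Affymetrix C. elegans Genome Array, background corrected by RMA and quantile normalized by the authors.

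The 20S core of the proteasome is a barrel of stacked rings in which proteins are cut into peptides. The outer rings, of alpha subunits encoded by the pas genes, form the gate, and the inner rings, of beta subunits encoded by the pbs genes, carry the proteolytic sites. Proteins reach the barrel after an E1 enzyme has activated ubiquitin, an E2 enzyme has carried it and a ligase has attached it to the substrate. The 19S regulatory particle, encoded by the rpn and rpt genes, recognizes and unfolds the tagged substrate, and deubiquitinases remove or recycle the ubiquitin. In these whole animals the signal is a mixture of the soma, the germline and any eggs, and fewer cells of a type cannot be told apart from less RNA per cell.

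The arrays had medians between 1.01 and 1.06, and no probe set of the 22548 tested passed an adjusted p under 0.05 in 13L against NGM (moderated test of limma, lowest adjusted p = 0.944). At an unadjusted p under 0.05 there were 1152 probe sets, or 5.11%. Within each diet the arrays differed widely in sperm genes. The median deviation of 37 sperm markers from their means over the 7 arrays was -1.40 (SL4), 0.82 (SL8) and 1.49 (SL12) in 13L, against -2.92 (SL1), 1.27 (SL5), 1.15 (SL9) and -0.37 (SL69) in NGM. The log2 of their summed level ran from 9.98 to 12.97 in 13L and from 8.37 to 12.78 in NGM, and 35 of the 37 had a mean above that of the brightest yeast control probe set (0.742). SL1 thus held the least sperm RNA and SL12 the most. Of 13 oocyte and eggshell markers and 5 yolk protein genes, all had means above the yeast controls. The median difference, 13L minus NGM, was 0.10 for the oocyte and eggshell markers and -0.02 for the yolk genes.

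No gene of the 20S core differed between 13L and NGM beyond the spread of the arrays. Of the 14 core genes, 9 had a positive difference and 5 a negative one, and the differences ran from -0.18 to 0.16 on the log2 scale with a median of 0.04. Over all 17118 genes the median difference was 0.00097 and 50.3% were positive. None of the 14 had an unadjusted p under 0.05, where 5.11% of all probe sets had one, and in none did the groups separate, where 6.08% of all probe sets had groups without overlap. Of the 1595 genes at least as bright as the dimmest core gene, 29 had such a p with 13L higher and 28 with 13L lower. In 54 and 50 of them the groups were separate, with 13L higher and lower. The 95% intervals of the 14 differences all held 0 and together reached from -0.41 to 0.39, so for no core gene did they extend to a level below 0.755 or above 1.31 times that on NGM.

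**Figure D1:**
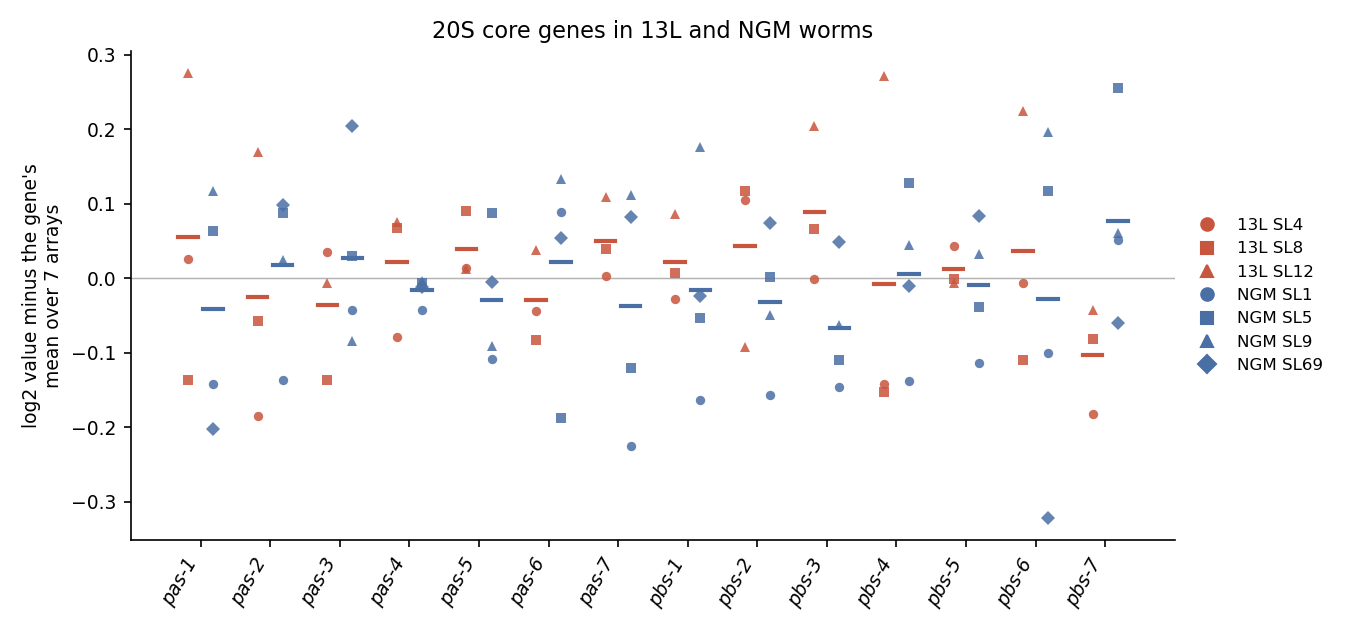
Log2 value of each 20S core gene minus its mean over the 7 arrays, with 3 arrays of 13L left of 4 arrays of NGM for each gene and a bar at the mean of each group. The groups overlap for all 14 genes, and the NGM array SL1 lies lowest in 6 of them.

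The 7 genes of the alpha ring had differences from -0.06 to 0.10, with 4 positive. The pas-1 gene was among the core genes that varied most between arrays. Its log2 values were 7.06, 6.90 and 7.31 in 13L (SL4, SL8, SL12), against 6.90, 7.10, 7.16 and 6.84 in NGM (SL1, SL5, SL9, SL69). SL12 was the highest and SL69 the lowest, and the values of the groups were interleaved. The difference was 0.10 (SE 0.13, limma unadjusted p = 0.473 and adjusted p = 0.966). The other alpha genes had differences of -0.04 for pas-2, -0.06 for pas-3, 0.04 for pas-4, 0.07 for pas-5, -0.05 for pas-6 and 0.09 for pas-7. The SD of pas-4 over the 7 arrays was 0.06, and 1.57% of all genes had a smaller one.

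The beta ring holds the subunits that cut proteins. The subunit of pbs-1 has the caspase-like site, that of pbs-2 the trypsin-like site and that of pbs-5 the chymotrypsin-like site. For pbs-1 the log2 values were 7.54, 7.57 and 7.65 in 13L (SL4, SL8, SL12), against 7.40, 7.51, 7.74 and 7.54 in NGM (SL1, SL5, SL9, SL69). The 13L arrays lay inside the range of the NGM arrays, with a difference of 0.04 (95% interval -0.19 to 0.27). For pbs-2 the values were 6.64, 6.66 and 6.45 in 13L, against 6.38, 6.54, 6.49 and 6.61 in NGM. Here SL4 and SL8 were above every NGM array, while SL12 was below all of them but SL1, and the difference was 0.08 (95% interval -0.15 to 0.30). For pbs-5 the values were 6.89, 6.85 and 6.84 in 13L, against 6.73, 6.81, 6.88 and 6.93 in NGM, a difference of 0.02 (95% interval -0.17 to 0.22). The 13L arrays of pbs-5 differed by little (SD 0.03), and again lay within the NGM range. The unadjusted p-values from limma for these catalytic subunits were 0.717, 0.460 and 0.811, in the order pbs-1, pbs-2 and pbs-5.

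Of the structural beta subunits, pbs-3 and pbs-7 had the core's largest differences, in opposite directions. The pbs-3 gene had 7.56, 7.63 and 7.77 in 13L (SL4, SL8, SL12), against 7.42, 7.45, 7.50 and 7.61 in NGM (SL1, SL5, SL9, SL69). Of the 4 NGM arrays, only SL69 reached into the range of 13L, and the difference was 0.16 (SE 0.09, limma unadjusted p = 0.129 and adjusted p = 0.944). A dimmer probe set of pbs-3 differed by -0.03. The pbs-7 gene had 7.68, 7.78 and 7.82 in 13L, against 7.91, 8.12, 7.92 and 7.80 in NGM. Again only SL69 overlapped the other diet, with a difference of -0.18 (SE 0.10, limma unadjusted p = 0.107 and adjusted p = 0.944). A dimmer probe set of pbs-7 differed by 0.07, so for both genes the 2 probe sets had opposite signs. Averaged over its probe sets, pbs-3 had a difference of 0.06 and pbs-7 one of -0.05.

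The pbs-6 gene had the core's widest spread. Its log2 values were 7.84, 7.74 and 8.07 in 13L (SL4, SL8, SL12), against 7.75, 7.97, 8.05 and 7.53 in NGM (SL1, SL5, SL9, SL69). The NGM arrays alone spanned nearly the whole range, and the difference was 0.06 (SE 0.14, limma unadjusted p = 0.666). The remaining beta gene, pbs-4, had a difference of -0.01. Across the core, the SD over the 7 arrays ran from 0.06 to 0.20 with a median of 0.12, beside a median of 0.14 for the 1595 genes at least as bright as pas-7, the dimmest core gene.

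**Figure D2:**
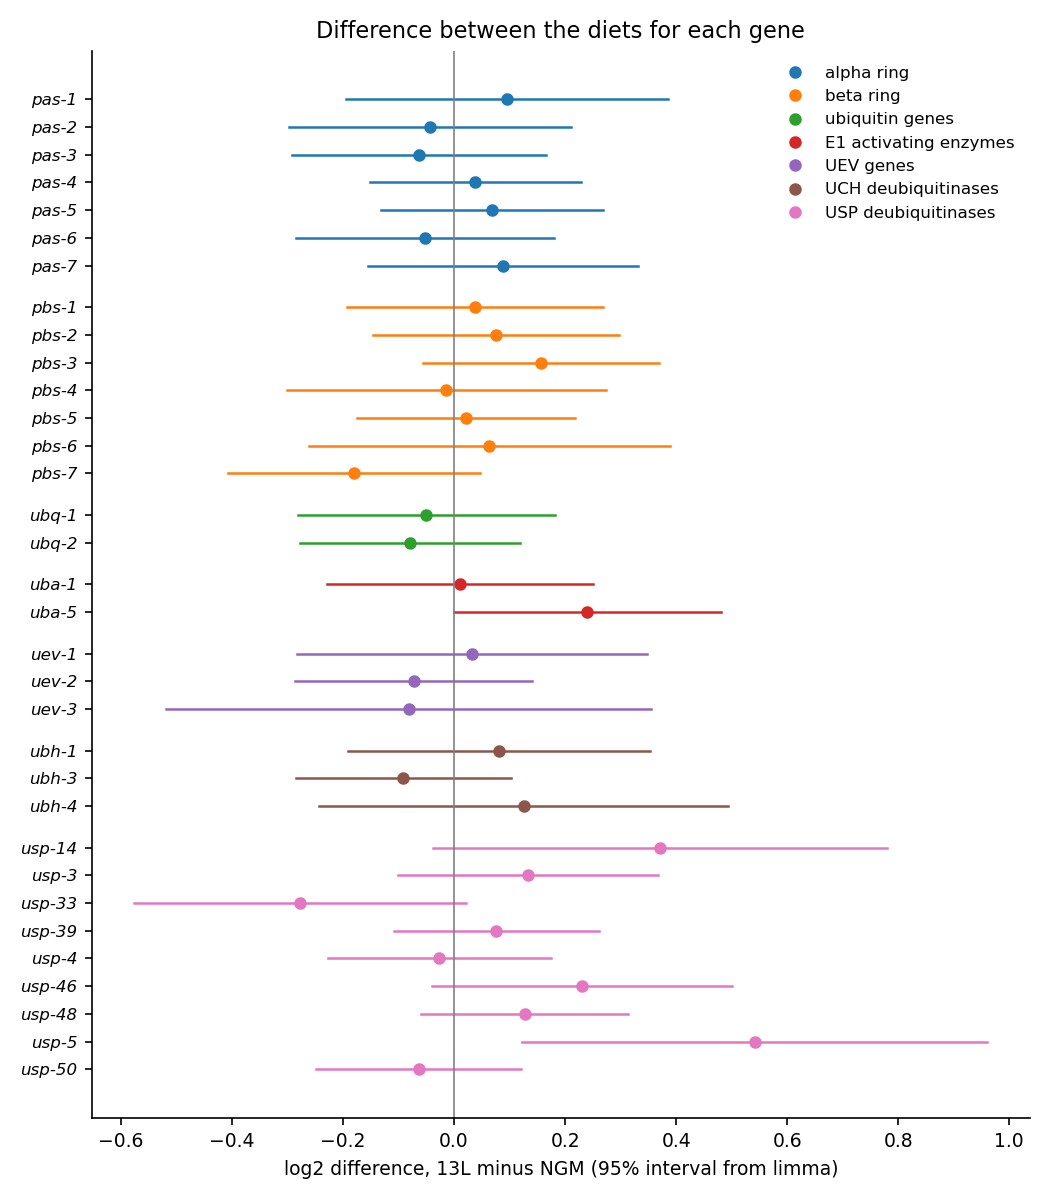
Log2 difference of 13L minus NGM for each of the 33 genes, with its 95% interval from limma and coloured by role. All 14 intervals of the alpha and beta rings hold 0, and those of usp-5 and uba-5 do not.

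The core genes had their high and low arrays partly in common. SL12 gave the highest value for 6 of the 14 core genes and the lowest for none, and SL1 gave the lowest for 6 and the highest for none. Over all genes, 18.3% were highest on SL12 and 13.4% lowest on SL1. Among the 1595 genes at least as bright as pas-7 these shares were 16.3% and 16.1%. The median deviation of the core from the means of its genes was -0.0037 (SL4), -0.03 (SL8) and 0.08 (SL12) in 13L, against -0.13 (SL1), 0.02 (SL5), 0.04 (SL9) and 0.02 (SL69) in NGM. SL1 stood apart below the other arrays, and the remaining NGM arrays lay between SL4 and SL12. SL1 and SL12 are also the arrays with the least and the most sperm RNA. Between these extremes the core did not keep the order of the sperm markers. SL8 had a sperm median of 0.82 and a core median of -0.03, while SL69 had -0.37 and 0.02. The 10 body muscle markers, all above the yeast controls, had their lowest median deviation on SL1 (-0.25) and their highest on SL12 (0.25). Their log2 summed level ran from 10.54 to 10.73 in 13L and from 10.48 to 10.74 in NGM, and SL1 was lowest for 3 of the 10. Other marker lists ran differently. The medians of 15 neuron markers (0.27), 9 embryo markers (0.11) and the yolk genes (0.08) were highest on SL1. Those of the embryo markers (-0.08) and the yolk genes (-0.07) were lowest on SL12. The oocyte and hypodermis markers had neither extreme on SL1 or SL12. The part of sperm, muscle or other tissue RNA in the core's values was not tested. Without SL1 the median difference of the core was 0.0075, without SL12 it was -0.0043, and without SL1 and SL69 together it was -0.0055.

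**Figure D3:**
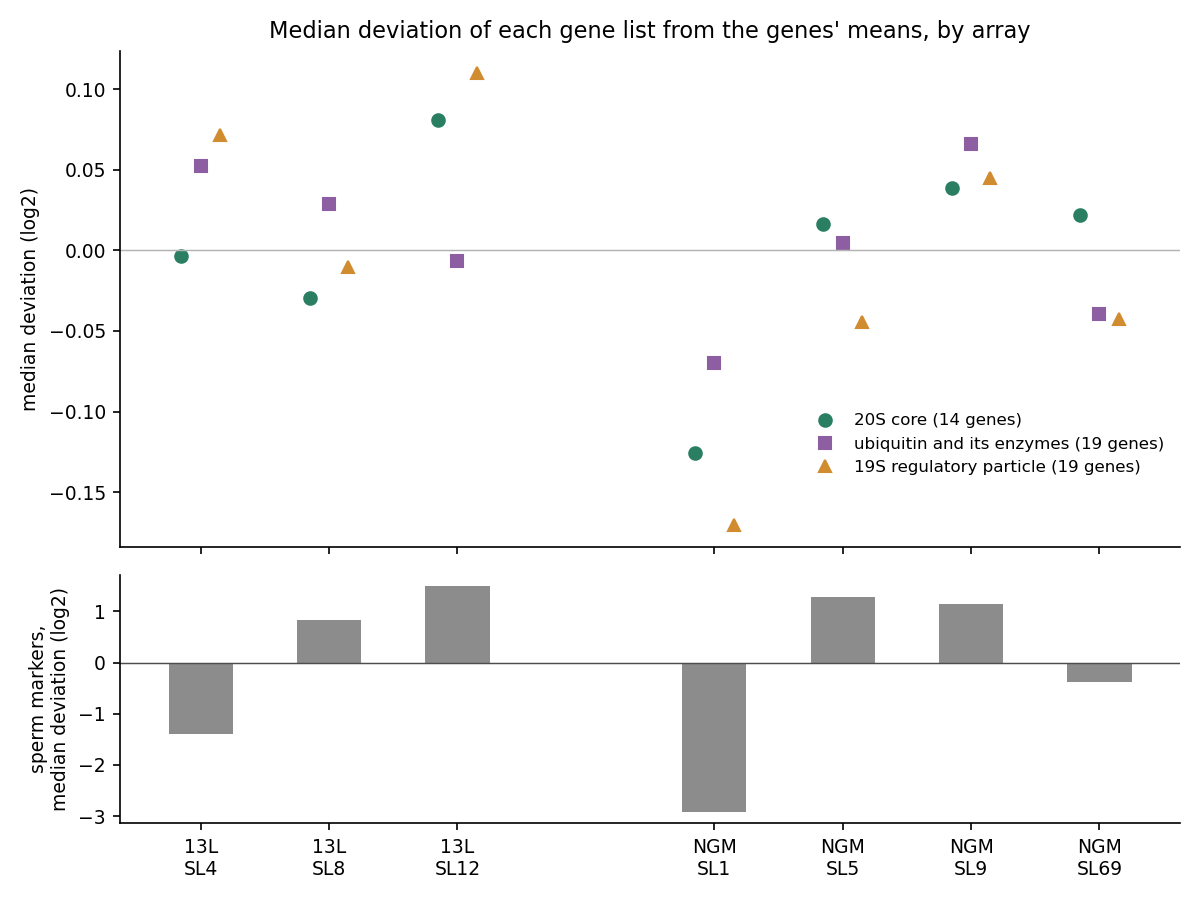
Median deviation of the 20S core, of ubiquitin and its enzymes and of the 19S regulatory particle from the means of their genes over the 7 arrays (upper panel, log2), and the same for the 37 sperm markers (lower panel), with the 13L arrays left of the NGM arrays. SL1 is lowest for all 4 lists.

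Set against the core, the genes of ubiquitin and its enzymes had a median difference near that of the core and a wider range. The difference was positive in 11 of the 19, its median was 0.03, and the values ran from -0.28 to 0.54. The middle of the list (quartiles) lay between -0.07 and 0.13, against -0.04 and 0.07 in the core. The core's median minus that of the enzymes was 0.0056. By array, the core's median deviation minus that of the enzymes was -0.06, -0.06 and 0.09 in 13L (SL4, SL8, SL12), against -0.06, 0.01, -0.03 and 0.06 in NGM (SL1, SL5, SL9, SL69). This difference averaged -0.0089 ± 0.084 in 13L (SD, n = 3) and -0.0026 ± 0.051 in NGM (SD, n = 4), and the groups overlapped. Genes of a list are not replicates, and no test was made of the lists. Without SL1 the median of the enzymes was -0.032, without SL1 and SL69 it was -0.019, and with array weights it was -0.0076 over all 7 arrays. The sign of this median is therefore not settled.

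For both ubiquitin genes the diets overlapped. The ubq-1 gene encodes polyubiquitin, a string of ubiquitin copies, and ubq-2 encodes ubiquitin fused to a ribosomal protein. For ubq-1 the log2 values were 8.94, 8.77 and 8.70 in 13L (SL4, SL8, SL12), against 8.82, 8.73, 8.86 and 8.997 in NGM (SL1, SL5, SL9, SL69). SL12 was the lowest array and SL69 the highest, with the groups interleaved between them, and the difference was -0.05 (95% interval -0.28 to 0.18), with 0.03 on a dimmer probe set. For ubq-2 the values were 8.98, 8.98 and 9.09 in 13L, against 9.04, 9.18, 9.14 and 9.02 in NGM. SL4 and SL8 were below every NGM array and SL12 was not, with a difference of -0.08 (95% interval -0.28 to 0.12).

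The array also carries control probe sets for worm ubiquitin, placed along the transcript, which were outside the test. At the 3′ end they read 9.001, 8.933 and 8.964 in 13L (SL4, SL8, SL12), against 9.004, 8.912, 9.003 and 8.906 in NGM (SL1, SL5, SL9, SL69), means of 8.97 ± 0.03 in 13L (SD, n = 3) and 8.96 ± 0.05 in NGM (SD, n = 4). At the 5′ end the means were 3.31 ± 0.07 (SD, n = 3) in 13L and 3.27 ± 0.06 (SD, n = 4) in NGM. The 3′ minus 5′ difference, which grows where RNA is broken or copied short, lay between 5.59 and 5.70 in 13L and between 5.60 and 5.72 in NGM. For Gapdh controls it lay between 0.46 and 0.73 in 13L and between 0.47 and 0.77 in NGM. For actin controls it lay between 1.27 and 1.93 in 13L, with SL4 lowest, and between 1.66 and 1.96 in NGM. It thus differed between transcripts, and its size for ubiquitin alone does not measure how broken the RNA was. For all these measures the ranges of the diets overlapped.

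**Figure D4:**
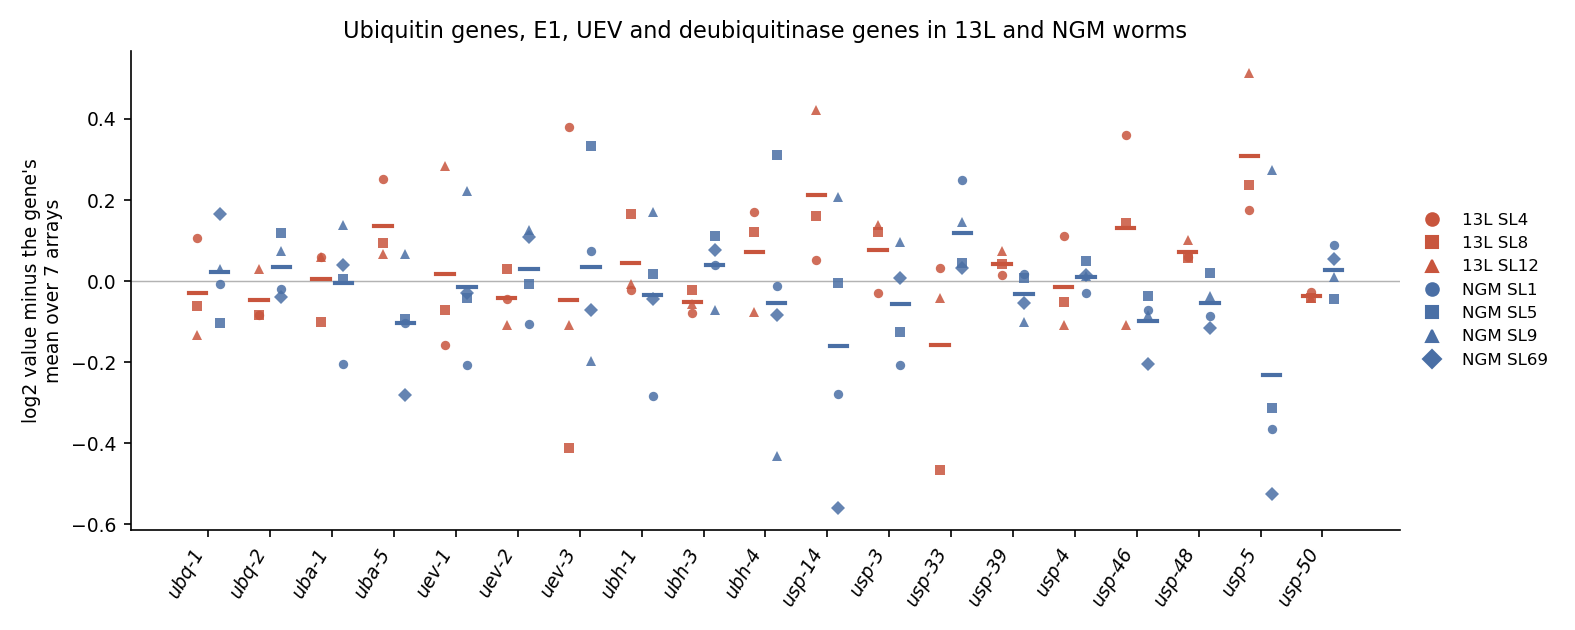
Log2 value of each ubiquitin, E1, UEV and deubiquitinase gene minus its mean over the 7 arrays, with 3 arrays of 13L left of 4 arrays of NGM for each gene and a bar at the mean of each group. The widest spread is that of usp-5, whose 13L arrays lie above 3 of the 4 NGM arrays.

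Of the E1 genes, uba-1 encodes the enzyme that activates ubiquitin, and uba-5 the one for the ubiquitin-like modifier UFM1. The uba-1 gene had 6.95, 6.78 and 6.94 in 13L (SL4, SL8, SL12), against 6.68, 6.89, 7.02 and 6.93 in NGM (SL1, SL5, SL9, SL69). The 13L arrays lay within the range of NGM, with a difference of 0.01 (95% interval -0.23 to 0.25) and of 0.03 on a dimmer probe set. The uba-5 gene had 4.97, 4.81 and 4.79 in 13L, against 4.62, 4.63, 4.79 and 4.44 in NGM. Every 13L array was above SL1, SL5 and SL69, and SL12 stood level with SL9. The difference was 0.24 (SE 0.11, limma unadjusted p = 0.0498 and adjusted p = 0.944). With single arrays left out it ran from 0.18 (SL69) to 0.30 (SL9), and the unadjusted p was above 0.05 for each of them but SL9. Without SL1 and SL69, the lowest NGM arrays of uba-5, the difference had to shrink and was 0.15 (unadjusted p = 0.239 from limma). With an assumed pairing by runs of title numbers as blocks, where SL69 stands alone, it was 0.18 (unadjusted p = 0.140 from limma).

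The uev genes encode proteins built like E2 enzymes that lack the catalytic cysteine. The uev-1 gene had a difference of 0.03, uev-2 one of -0.07 and uev-3 one of -0.08. The probe set of uev-2 averaged 0.50, below the level of the yeast controls (up to 0.742), so its signal cannot be told from background. The E2 gene let-70, whose enzyme carries ubiquitin and which the symbol rule does not take, had a difference of -0.13 (unadjusted p = 0.188 from limma).

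The difference was positive in 8 of the 12 deubiquitinase genes, and its median was 0.10. Of the 33 genes in all, 2 had an unadjusted p under 0.05, uba-5 and the deubiquitinase gene usp-5, both higher in 13L by this measure. Of all probe sets, 2.54% had one on the higher side and 2.57% on the lower side. Over all 17118 genes, each by its brightest probe set, 341 had one on the higher side and 467 on the lower. In 2 of the 33 the groups did not overlap, usp-48 on the higher side and usp-33 on the lower, where 3.31% of all probe sets lay without overlap on the higher side and 2.77% on the lower. Set against these shares neither count stands out. With single arrays left out, the first count was 1 without SL8, SL12, SL1, SL5 or SL69 and 3 without SL9. In these fits 3.73% to 5.86% of all probe sets had an unadjusted p under 0.05 (limma). The count without overlap was 7 without SL4, 8 without SL12, 5 without SL5, 6 without SL9 and 4 without SL69. Smaller groups separate more easily by themselves. The share of all probe sets without overlap was not counted in these settings, so these counts cannot be weighed. Over all 7 arrays, for no gene of the 33 was the adjusted p from limma below 0.944.

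The usp-5 gene had the largest difference among the 33. In humans the enzyme of this name takes apart free chains of ubiquitin. Its log2 values were 4.36, 4.42 and 4.70 in 13L (SL4, SL8, SL12), against 3.82, 3.87, 4.46 and 3.66 in NGM (SL1, SL5, SL9, SL69). Every 13L array was above SL1, SL5 and SL69, and SL9 lay between SL8 and SL12. The difference was 0.54 (standard error 0.18, 95% interval 0.12 to 0.96), 1.46 times the NGM level (unadjusted p = 0.0170, adjusted p = 0.944 from limma). The SD over the 7 arrays, 0.39, was larger than in 95.9% of all genes. Leaving out single arrays gave differences from 0.44 to 0.71, with an unadjusted p of 0.0682 without SL12 and of 0.000407 without SL9 (limma). SL1 and SL69, the NGM arrays with the least sperm RNA, were also the lowest NGM arrays of usp-5. SL5, whose sperm median was the highest of NGM (1.27), read 3.87, close to SL1 at 3.82. Without SL1 and SL69 the difference had to shrink, and it was 0.33 (unadjusted p = 0.136 from limma). SL4 of 13L, whose sperm median was below that of SL69, was kept. The part of sperm RNA in the difference was not tested.

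The usp-14 gene encodes a deubiquitinase that binds the regulatory particle of the proteasome. Its log2 values were 6.56, 6.67 and 6.93 in 13L (SL4, SL8, SL12), against 6.23, 6.50, 6.72 and 5.95 in NGM (SL1, SL5, SL9, SL69). As for usp-5, SL12 was the highest array and SL69 the lowest, and SL9 was the NGM array that reached into the range of 13L. The difference was 0.37 (SE 0.18, limma unadjusted p = 0.0704 and adjusted p = 0.944). With runs of title numbers as blocks it was 0.24 (unadjusted p = 0.0467 from limma), in a fit where 7.88% of all probe sets had an unadjusted p under 0.05. Without SL1 and SL69, the lowest NGM arrays of usp-14, the difference had to shrink and was 0.11. The part of sperm RNA in it was not tested.

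**Figure D5:**
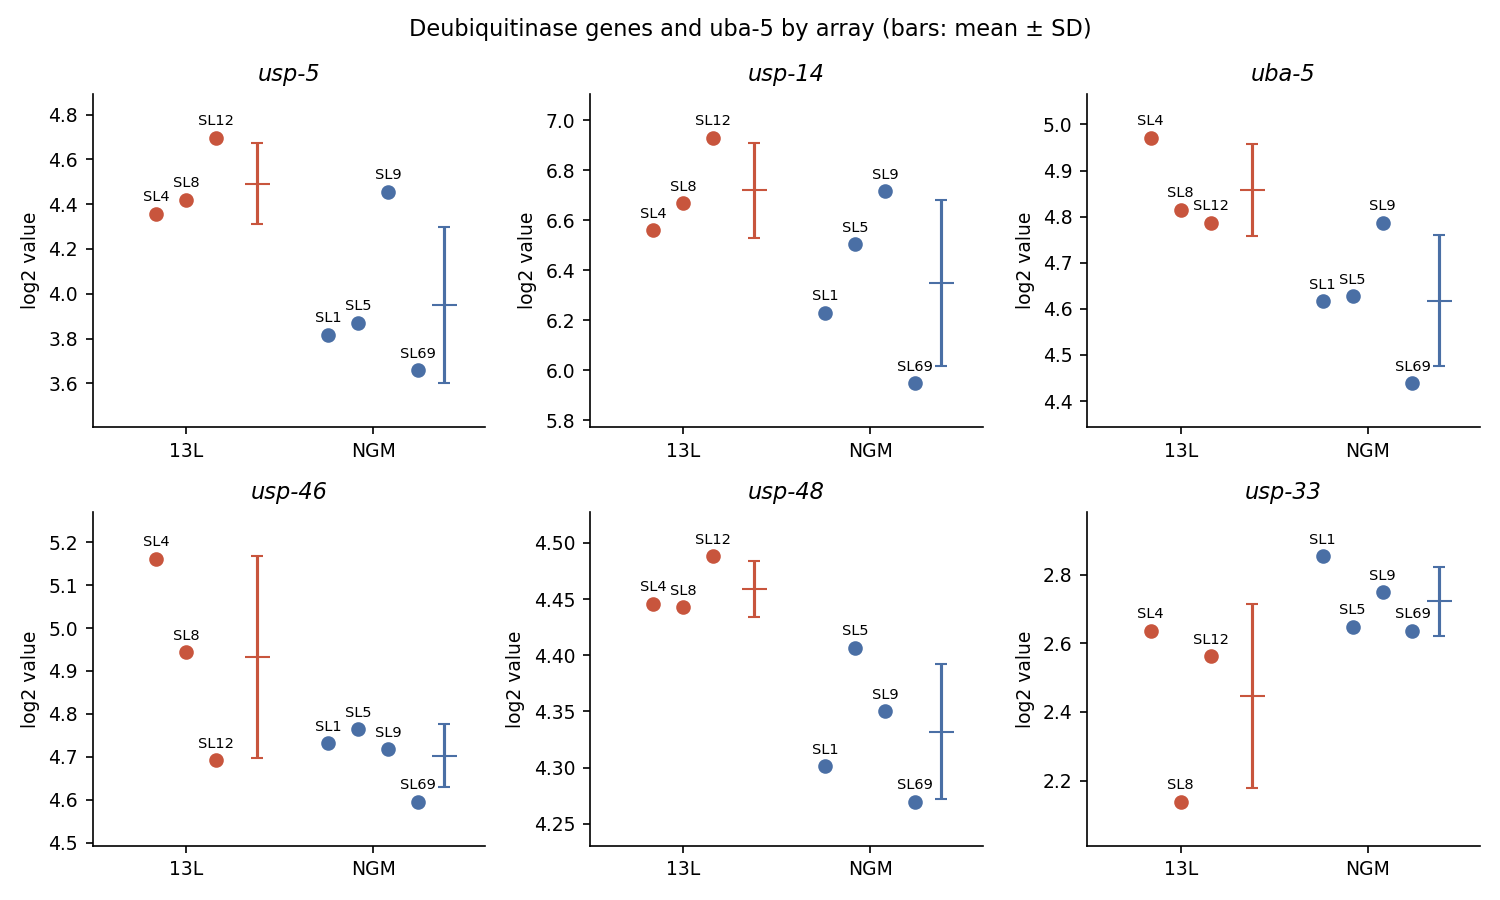
Log2 value on each array of 5 deubiquitinase genes and the E1 gene uba-5, with 13L left of NGM and bars at the mean ± SD of each group. The groups do not overlap for usp-48 and usp-33, while SL9 of NGM reaches the 13L arrays for usp-5 and usp-14.

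The groups separated for usp-48 by a small distance. Its values were 4.45, 4.44 and 4.49 in 13L (SL4, SL8, SL12), against 4.30, 4.41, 4.35 and 4.27 in NGM (SL1, SL5, SL9, SL69). All 3 arrays of 13L were above all 4 of NGM, as in 3.31% of all probe sets. A two-sided exact permutation test of 3 against 4 arrays cannot give a p below 0.0571. The gene is shown here because its groups separate, so no such test was made. The difference was 0.13 (SE 0.08, limma unadjusted p = 0.156). For usp-33 the values were 2.636, 2.139 and 2.562 in 13L, against 2.854, 2.649, 2.749 and 2.637 in NGM. SL4 and SL69 lay next to each other and SL8 stood low, with a difference of -0.28 (SE 0.13, limma unadjusted p = 0.0659). Without SL8 the difference was -0.12, with runs of title numbers as blocks it was -0.31 (unadjusted p = 0.0241 from limma), and a dimmer probe set differed by 0.11. The separation depended on the scaling of the arrays. With cyclic loess the groups of usp-48 overlapped, with arrays centred on the median those of usp-33 did, and under both the groups of the core gene pbs-7 were separate, with 13L lower.

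The usp-46 gene, whose enzyme acts on a glutamate receptor in worm neurons, had a difference of 0.23 (SE 0.12, limma unadjusted p = 0.0865). Its values were 5.16, 4.94 and 4.69 in 13L (SL4, SL8, SL12), against 4.73, 4.76, 4.72 and 4.596 in NGM (SL1, SL5, SL9, SL69). SL4 and SL8 were above every NGM array, and SL12 was within their range. Without SL12 the groups were separate, and usp-46 was the 1 gene of the 33 with an unadjusted p under 0.05 (limma). In that fit 4.73% of all probe sets had one. The other usp genes had differences of 0.13 for usp-3, 0.08 for usp-39, -0.03 for usp-4 and -0.06 for usp-50. Further probe sets differed by 0.25 for usp-4 and by 0.07 and 0.05 for usp-50, of which those with 0.25 and 0.05 had means below the yeast controls. The usp-39 gene is counted here by its symbol, although its relative in yeast and humans is known as a splicing factor. The probe set of usp-3 averaged 0.50 and, like that of uev-2, was below the level of the yeast controls. Of the ubh genes, which form another family of deubiquitinases, ubh-4 is known to act with the proteasome in worms. Its difference was 0.13, beside 0.08 for ubh-1 and -0.09 for ubh-3, and each of these had an unadjusted p above 0.05.

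Beside the core, the 19S regulatory particle had a median difference of 0.11 over 19 genes, 16 of them positive. At an unadjusted p under 0.05, 2 were higher in 13L and none lower, where 2.54% of all probe sets were higher and 2.57% lower. The adjusted p from limma was 0.944 or higher for all 19. In 3 of the 19, rpn-13, rpn-6.1 and rpn-7, the groups did not overlap and 13L was higher, where 3.31% of all probe sets lay so. The ubiquitin receptor gene rpn-13 had 6.23, 6.31 and 6.34 in 13L (SL4, SL8, SL12), against 5.85, 6.01, 6.15 and 5.86 in NGM (SL1, SL5, SL9, SL69), a difference of 0.33 (unadjusted p = 0.0109 from limma). Of the NGM arrays of rpn-13, SL9 came nearest to 13L. The gene of the lid subunit rpn-6.1 had a difference of 0.28, rpn-7 one of 0.19 and rpt-6, an ATPase, one of 0.22. Since the study singled out rpn and rpt genes from the same arrays, this direction is no independent evidence. SL1 gave the lowest value for 12 of the 19 and SL12 the highest for 8, the same arrays as in the core. The median deviation of the regulatory particle averaged 0.06 ± 0.06 in 13L (SD, n = 3) and -0.05 ± 0.09 in NGM (SD, n = 4), and that of the core 0.02 ± 0.06 in 13L and -0.01 ± 0.08 in NGM.

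Among 19 genes of substrate delivery, proteasome activators and their regulator, the difference was positive in 14 and its median was 0.05. An unadjusted p under 0.05 was found for 2, both higher in 13L, beside 2.54% of all probe sets on that side and 2.57% on the lower. These were ubxn-3, which works with the segregase CDC-48, at 0.27 and the membrane ligase gene sel-11 at 0.23. In both the groups did not overlap and 13L was higher, where 3.31% of all probe sets lay so. The sel-11 gene is counted in this list and not in the list of ligases that follows. The shuttle gene rad-23 had a difference of 0.30 and ubxn-2 one of 0.22. Among 30 genes of ligases and other conjugation steps, the difference was positive in 11 and its median was -0.04. An unadjusted p under 0.05 was found for 1 on the higher side and 1 on the lower, beside 2.54% and 2.57% of all probe sets. In genes of this list with separate groups, 13L was higher in 1 and lower in 5, where 3.31% of all probe sets were separate with 13L higher and 2.77% with 13L lower. Neuron markers were also mostly lower in 13L, 12 of 15 with a median difference of -0.20, of which 2 had an unadjusted p under 0.05. The log2 of their summed level ran from 7.70 to 7.81 in 13L and from 7.87 to 7.93 in NGM, with 14 of the 15 above the yeast controls. Their part in the values of the ligase genes was not tested. The ligase gene marc-6 had a difference of -0.33, mib-1 one of 0.30, ubr-1 one of -0.20 and wwp-1 one of -0.19. No gene of either list passed an adjusted p under 0.05 from limma.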

How the data were processed

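Total RNA of worms was labelled with biotin and hybridized to 1 array per sample, 3 of 13L and 4 of NGM. The authors applied RMA background correction and quantile normalization and deposited log2 values per probe set. No software version is given, nor the offset of the scale. Precision is limited by the number of arrays. Of 22625 probe sets, 77 Affymetrix controls were left out and 22548 tested. Names came from the annotation of the platform (20766 probe sets with 1 gene, 887 with several, 895 with none), and current symbols from the WBcel235 gene table. Of the 33 genes, 7 had more than 1 probe set, and 19 of the 33 probe sets used may be shared between transcripts (suffix _s_at or _x_at).

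All probe sets were fitted together by limma 3.58.1 (R 4.3.3) without a trend, and its two-sided moderated p-values were adjusted over the 22548 after Benjamini-Hochberg, with a threshold of 0.05. The procedure was tested on simulated data. P-values set the difference of the groups against the spread between these samples, estimated with the help of all probe sets. That spread may be technical. Lists are described by counts and medians beside those of all genes. A deviation is a log2 value minus the gene's mean over the 7 arrays. The members and lists were chosen with earlier results of these data known. Values per array are given for the catalytic subunits, ubq-1, ubq-2 and uba-1, for genes at an unadjusted p under 0.05 or without overlap, and for the 2 genes with the largest moderated t and the 2 with the largest SD in the core and in the enzymes. In each companion list the 4 genes with the largest moderated t were named. The values per array of usp-46 and rpn-13 and the difference of let-70 were added after they were seen. Alternatives left out arrays or probe sets, took title numbers as blocks, or changed the variance model, the array weights or the normalization. No sequence of these genes was used here.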

Additional observations from a re-analysis of the deposited data

Results flagged for a closer look

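The median deviation of the 20S core on SL1 was -0.126, far from the other 3 arrays of NGM, which lay between 0.02 and 0.04. The gap to the nearest array took 0.862 of the range of the 4 NGM arrays. Of 36 groups of 4 arrays examined in this way (33 genes and 3 list medians), this was the only one past the critical value, where chance flags about 1 in 20. SL1 also had the lowest median of the sperm markers, -2.92, and the part of sperm RNA in the core's value was not tested.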

How the results depend on the processing

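No probe set and none of the 33 genes passed an adjusted p under 0.05 under any of the 16 alternatives run (0 in each, limma). With single arrays left out, 1 to 3 genes had an unadjusted p under 0.05, beside 3.73% to 5.86% of all probe sets, and 2 to 8 had groups without overlap. In those settings the core's median difference ran from -0.0043 to 0.058, that of the enzymes from -0.032 to 0.077, and the core minus the enzymes from -0.036 to 0.039. With arrays centred on the median, among the brighter probe sets and without shared probe sets, 1 gene had an unadjusted p under 0.05, usp-5 each time. The shares of all probe sets tested were 5.06%, 5.25% and 5.15%. Without SL1 and SL69 there were 0, beside 4.49% of all probe sets. SL1 and SL69 are the lowest NGM arrays of both usp-5 and uba-5. The groups did not overlap for 1 gene without shared probe sets, for 1 with probe sets averaged per gene and for 6 without SL1 and SL69, a setting in which the enzymes' median was -0.019. With array weights that median was -0.0076. With median centring (pbs-7, usp-39, usp-48) and with cyclic loess (pbs-7, uba-5, usp-33) 3 genes had groups without overlap. Smaller groups separate more easily, and without shared probe sets 15 of the 33 genes were left. The share of all probe sets without overlap was not counted in the alternatives, so their counts without overlap cannot be weighed.

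The genes given by array were followed through the alternatives, except usp-46 and rpn-13. Of those followed, 6 had a sign that turned, each at a difference of 0.10 or less in size. With single arrays left out, pas-1 ran from -0.015 to 0.19, pbs-1 from -0.011 to 0.10, pbs-5 from -0.014 to 0.052, pbs-6 from -0.034 to 0.14, ubq-1 from -0.12 to 0.0019 and uba-1 from -0.055 to 0.064. Without SL1 and SL69 together, the difference was -0.035 for pas-1, -0.039 for pbs-1, -0.12 for pbs-6, 0.0079 for ubq-1 and -0.066 for uba-1. With array weights it was -0.013 for pbs-6 and -0.0076 for uba-1, and with blocks it was -0.034 for pbs-6.

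The labels pair no arrays, since no replicate number is common to both diets, and a paired fit was run on an assumption. Title numbers in runs place SL4 with SL1, SL8 with SL5 and SL12 with SL9, and the deviations of these pairs from their diets correlated at 0.529, 0.156 and 0.537. As blocks they leave SL69 alone, which then adds nothing to the difference. In that fit uba-5 lost its unadjusted p under 0.05 (0.140), and 3 of the 33 genes had an unadjusted p under 0.05, usp-5 (0.44), usp-14 (0.24) and usp-33 (-0.31), where 7.88% of all probe sets had one, and the lowest adjusted p of a member was 0.417 (limma).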
